A study of Mus musculus with 6 samples.

Results

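Microglial RNA of brains with metastases was compared between a library of Cx3cr1-/- mice (null) and a library of Cx3cr1+/- mice (heterozygous). Members were all cell barcodes with at least 400 detected genes and at least 3 UMIs summed over 8 microglial genes (P2ry12, Tmem119, Siglech, Sall1, Gpr34, Fcrls, Olfml3 and Slc2a5), whatever their share of mitochondrial UMIs. This rule kept 810 of the 1000 deposited barcodes of the heterozygous library and 896 of the 1000 of the null library, or 1706 of the 6000 barcodes of the series. Both libraries were made by Drop-seq, a droplet method that counts the 3′ ends of transcripts with unique molecular identifiers (UMIs), and both were sequenced on a NextSeq 500. The mice were females of the C57BL/6 strain, 2 to 3 months old, whose metastases had been seeded by E0771 cells, a mouse mammary carcinoma line, injected into the heart 2 to 3 weeks earlier. Each library pooled 2 brains and held myeloid cells enriched on Cd11b. Neither group is free of a Cx3cr1 mutation, and what the mutation removes is not stated in the labels. The other 4 libraries of the series came from 1 brain each of unmodified C57BL/6 females of the same age, 2 naive and 2 with metastases, and are given beside the values as a range only. With 1 library on each side there is no replicate check, no test was possible between genotypes, and every interval below is an exact 95% interval that covers counting error only.

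Cx3cr1 encodes the receptor for fractalkine (Cx3cl1), a chemokine that neurons carry on their surface and shed. In the brain the receptor is carried mainly by microglia, and signalling through its inhibitory G protein is known to restrain their activation. Type I interferons act on another receptor and switch on a large group of antiviral genes. The title of the series names an interferon response mediated by Cx3cr1 in microglia at metastases, and the question taken from it was how interferon-induced and other genes differ between the genotypes.

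Many of these barcodes held a large share of mitochondrial transcripts, so each comparison was made on 2 sets of barcodes. The low-mt set had under 10% mitochondrial UMIs, and the high-mt set 10% or more. The heterozygous library had 231 low-mt and 579 high-mt members, and the null library 153 and 743. The low-mt barcodes were deeper, with a median of 3894 nuclear-coded UMIs in heterozygous and 3106 in null, against 1077 and 969 in the high-mt sets. Low-mt barcodes carried 61.0% of the nuclear-coded UMIs of the heterozygous members but 42.5% of those of the null members, so a ratio over all barcodes mixes the sets unequally. Levels are given in CPM, the counts scaled to a fixed total of nuclear-coded UMIs summed over the members, which was 1861959 UMIs in heterozygous and 1409971 in null. The 2 sets are different barcodes of the same libraries and are not replicates. No barcode sequence was shared between the 2 libraries, and 1 was shared between null and a naive library.

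**Figure D1:**
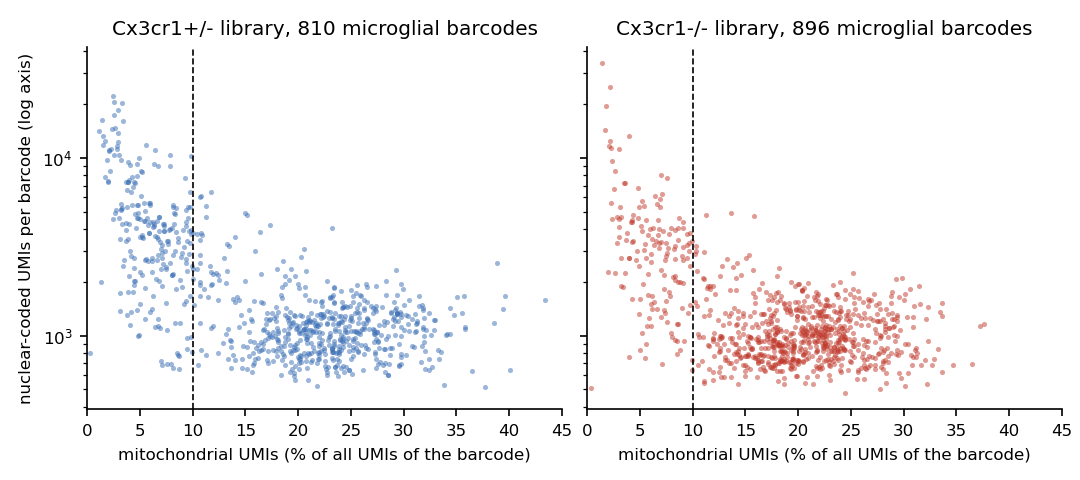
Each point is a microglial barcode, with its mitochondrial share of UMIs in percent (x) and its nuclear-coded UMIs on a log axis (y). The dashed line marks 10%; the deep barcodes lie left of it in both libraries, and most barcodes (579 of 810 heterozygous, 743 of 896 null) lie right of it.

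The rule itself required UMIs of the 8 microglial genes, and the cells were enriched on Cd11b, so the levels of these genes are a description and no check of the label. Tmem119 stood at 794 CPM in heterozygous and 1102 CPM in null, and P2ry12, a purinergic receptor of resting microglia, at 1369 and 1611 CPM. Itgam, which encodes Cd11b, stood at 803 and 1013 CPM. The 8 genes of the rule summed to 5373 CPM in heterozygous and 6634 CPM in null, and to between 1609 and 9824 CPM in the members of the other libraries. Sparc, a microglial marker that the rule did not use, stood at 2454 CPM in heterozygous and at 2767 CPM in null. The lower limit cut through a continuous range: 136 heterozygous and 99 null barcodes had just 3 of these UMIs, while 99 and 50 with enough genes had 2 and were left out.

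Cx3cr1 itself was far lower in the null library. It stood at 1149 CPM in low-mt and 2133 CPM in high-mt barcodes of the heterozygous library. In null it stood at 51.7 and 93.8 CPM. Its UMIs came from 723 heterozygous and 88 null barcodes. The log2 ratio of null over heterozygous was −4.34 (−4.63 to −4.06) over all members, −4.48 in the low-mt and −4.51 in the high-mt set. The gene lies on chromosome 9 at 119901616 to 120069879, minus strand (GRCm38). Unmodified microglia spanned 585 to 4640 CPM, with heterozygous inside and null below that range. These libraries differ in make-up from the heterozygous and null libraries. The same rule kept 549 members in naive 1, 556 in naive 2, 238 in metastasis 1 and 75 in metastasis 2. Metastasis 1 and metastasis 2 each had 1 high-mt member. The lowest value came from metastasis 1, whose members held 1609 CPM of the rule's genes, against 5373 CPM in heterozygous. Every range of unmodified libraries given here carries this limit. Where the 3′ end of the Cx3cr1 transcript lies relative to the mutation is not known here, which limits the Cx3cr1 level as a check of the genotype label.

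Across the genome, 5337 genes had at least 50 UMIs over both libraries in each set and were compared. A gene could reach this minimum through 1 library alone, so genes near it were admitted by the library in which they were higher. A gene was counted as higher or lower in null when its CPM ratio reached 1.5-fold in the same direction in both sets. By this rule 100 genes (1.87% of those compared) were higher in null and 147 (2.75%) were lower, while 27 (0.506%) passed 1.5-fold in opposite directions. The median log2 ratio of all compared genes was −0.05 in the low-mt set, −0.03 in the high-mt set and −0.01 over all members. Of the 100 higher genes, 18 belong to the list of type I interferon genes, and 11 are ribosomal protein genes. Of the 147 lower genes, 15 are markers of cell classes other than microglia, as are 3 of the 100 higher genes (the monocyte markers Ly6c2, Ms4a4c and Ms4a7) and 42 of all genes compared (0.787%). With the TMM scaling of edgeR the counts were 130 higher and 125 lower, against 100 and 147. A ratio of 2-fold in both sets was reached by 18 higher and 35 lower genes.

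**Figure D2:**
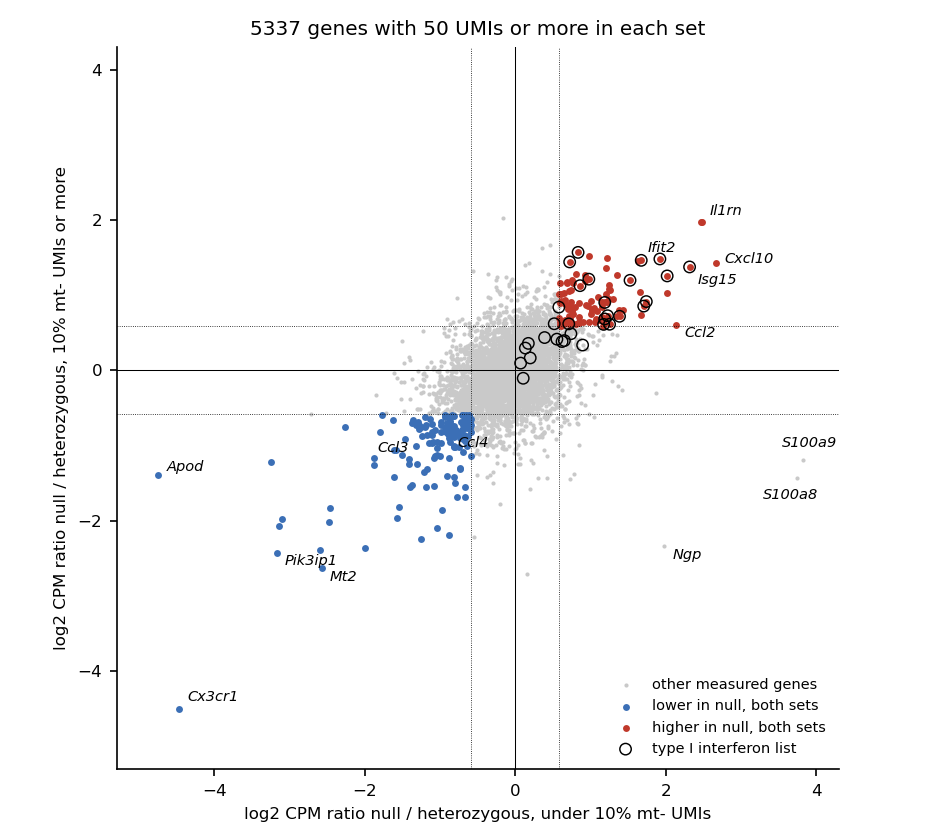
Each point is 1 of 5337 genes, with the log2 CPM ratio of null over heterozygous in low-mt (x) and high-mt barcodes (y). Dotted lines mark 1.5-fold; red points (100) are higher and blue points (147) lower in null in both sets, and open circles mark the 31 compared genes of the type I interferon list, of which Mx2 alone lies below 0 in a set.

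Before the levels, promoters of 4 genes are shown as examples, of which 3 were higher and 1 was lower in null. They were picked because they differ in a motif of interferon-induced genes, and do not stand for all genes of either direction. Each runs from 250 bases before to 50 bases after the annotated start (RefSeq, GRCm38.p6), 5′ to 3′ on the gene's strand. Capitals mark matches on either strand to GAAA, any 2 bases and GAAA again, a form of the interferon-stimulated response element (ISRE). Isg15 (chr4:156200769-156201068, minus strand) has 3 overlapping matches. Ifit3 (chr19:34583279-34583578, plus strand) has 2, Cxcl10 (chr5:92348840-92349139, minus strand) has 1, and Ccl3 (chr11:83649329-83649628, minus strand) has 0.
Isg15: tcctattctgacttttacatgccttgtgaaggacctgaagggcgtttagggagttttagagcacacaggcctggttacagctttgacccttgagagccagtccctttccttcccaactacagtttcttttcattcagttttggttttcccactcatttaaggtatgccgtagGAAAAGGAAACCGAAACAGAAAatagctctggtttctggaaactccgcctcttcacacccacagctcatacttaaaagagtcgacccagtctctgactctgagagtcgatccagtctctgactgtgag
Ifit3: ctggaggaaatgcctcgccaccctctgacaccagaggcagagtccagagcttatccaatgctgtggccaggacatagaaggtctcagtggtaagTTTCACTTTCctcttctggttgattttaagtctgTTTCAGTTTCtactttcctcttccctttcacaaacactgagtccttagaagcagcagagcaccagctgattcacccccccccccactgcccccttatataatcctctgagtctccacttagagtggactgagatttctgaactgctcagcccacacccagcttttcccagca
Cxcl10: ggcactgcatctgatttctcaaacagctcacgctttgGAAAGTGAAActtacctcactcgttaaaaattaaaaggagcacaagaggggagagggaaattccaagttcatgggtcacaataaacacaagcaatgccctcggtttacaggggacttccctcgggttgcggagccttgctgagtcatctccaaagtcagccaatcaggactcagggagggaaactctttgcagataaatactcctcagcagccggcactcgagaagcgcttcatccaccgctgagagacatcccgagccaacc
Ccl3: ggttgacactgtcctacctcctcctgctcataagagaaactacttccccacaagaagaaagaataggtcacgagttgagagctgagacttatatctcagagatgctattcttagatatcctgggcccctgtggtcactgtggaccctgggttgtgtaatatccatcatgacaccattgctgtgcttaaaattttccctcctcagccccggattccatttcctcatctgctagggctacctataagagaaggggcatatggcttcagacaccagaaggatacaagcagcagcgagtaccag

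The ISRE pattern was found in 1079 of 27025 genes with a promoter window (3.99%) and in 179 of 4136 compared genes with one (4.33%). Of the type I interferon list, 28 of 37 genes matched a window and 16 of them (57.1%) held the pattern. Among the 67 matched genes that were higher in null, 16 held it (23.9%), and among the 111 matched genes that were lower, 1 did (0.90%). Most of the higher genes thus lacked it, and Oasl1, Oasl2, Ifit2, Irf7 and Cxcl9, all higher in null, had 0 matches. A second pattern, TTCNNNGAA, a gamma-activated site, was in 9.55% of all genes, in 8.96% of the higher and in 11.7% of the lower genes. These counts describe letters in a window, and neither a match nor its absence shows what binds there.

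Interferon-induced genes were the most numerous of the listed groups among the genes higher in null. Of 37 listed type I interferon genes, 31 were compared. In both sets 18 passed 1.5-fold upward, 0 downward and 30 lay above 0, against 1.87%, 2.75% and 27.4% of all genes compared. The genes not compared, all for low counts, were Ifit1, Ifit3b, Oas2, Oas3, Ifi44 and Isg20. Ifit3b, listed in the tables by its older symbol I830012O16Rik, had 13 UMIs in heterozygous and 35 in null. The median log2 ratio of the list was 0.86 in low-mt and 0.68 in high-mt barcodes. The whole list summed to 3989 CPM (low-mt) and 3292 CPM (high-mt) in heterozygous, and to 7422 and 5294 CPM in null, a log2 ratio of 0.90 (0.84 to 0.96) and 0.69 (0.61 to 0.76). The difference was spread over many barcodes: the median share of nuclear-coded UMIs taken by the list was 0.294% per heterozygous barcode and 0.489% per null barcode. In low-mt barcodes these medians were 0.253% and 0.385%, and in high-mt barcodes 0.312% and 0.508%. The 3 richest barcodes held 8.0% of the list's UMIs in heterozygous and 14.9% in null, which adds to the summed ratios.

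The unmodified libraries spread more widely than the genotypes. They held 1582 CPM (naive 1), 5893 CPM (naive 2), 4976 CPM (metastasis 1) and 1338 CPM (metastasis 2) of the list, against 3717 CPM in heterozygous and 6199 CPM in null over all members. Null was thus the highest library and heterozygous lay inside the range, and naive 2 came next to null. Naive 2 also resembled both in mitochondrial share, with a median of 18.2% against 19.6% in heterozygous and 19.3% in null. Its low-mt barcodes stood at 7167 CPM, near null, and its high-mt barcodes at 3661 CPM, near heterozygous.

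Among antiviral effectors, Isg15, a ubiquitin-like protein that is attached to other proteins, stood at 47.5 and 40.0 CPM in low-mt and high-mt heterozygous barcodes and at 237 and 104 CPM in null. Its log2 ratio over all members was 1.85 (1.48 to 2.23). Its UMIs came from 54 heterozygous and 105 null barcodes. Both sets were higher in null, and the difference was larger in the low-mt set, where the ratio was 2.32 against 1.38. Ifit2, whose product binds foreign RNA, stood at 66.9 and 70.3 CPM in heterozygous and 213 and 194 CPM in null, a ratio of 1.57 (1.26 to 1.88). Rsad2, the radical SAM enzyme viperin, stood at 41.4 and 71.7 CPM in heterozygous and at 135 and 130 CPM in null, a ratio of 1.31 (0.95 to 1.68). Over 12 alternative ways of processing, Isg15 lay between 1.17 and 1.92, Ifit2 between 1.41 and 1.89, and Rsad2 between 0.98 and 1.59.

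The oligoadenylate synthetase family, of which some members sense double-stranded RNA, gave 3 compared members, all higher. Oasl1 stood at 16.7 and 23.4 CPM in heterozygous and at 63.3 and 65.4 CPM in null, a ratio of 1.74 (1.17 to 2.34). Oasl2 had a ratio of 1.66 (1.25 to 2.09), from 31.7 and 45.5 CPM to 128 and 109 CPM. Oas1a had a ratio of 1.32 (0.82 to 1.83), with 29.9 and 26.2 CPM in heterozygous and 100 and 49.4 CPM in null. These genes have close relatives in the same cluster, and the way the authors counted reads that match several genes is not given in the sources used here.

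Regulators of the response varied. Irf7, the factor that amplifies interferon production, had a ratio of 1.13 (0.88 to 1.38), from 114 CPM in heterozygous to 250 CPM in null. Usp18, the protease that removes Isg15 and dampens the receptor, had one of 1.17 (0.65 to 1.70). Stat2 at 0.28 (−0.01 to 0.57) and the RNA sensor Ifih1 at 0.15 (−0.20 to 0.50) had intervals that include equality. Mx2, a dynamin-like antiviral GTPase, was the exception of the list, at 0.10 in low-mt and −0.10 in high-mt barcodes, while its relative Mx1 stood at 1.02 (0.60 to 1.44).

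Genes outside this list that led the higher genes were in part of the same kind. Slfn4, a myeloid member of the Schlafen family, stood at 30.8 and 34.4 CPM in heterozygous and at 125 and 70.4 CPM in null, a ratio of 1.54 (1.09 to 2.00). Mnda and Pydc4, of the interferon-inducible family with pyrin domains, had ratios of 2.19 (1.58 to 2.84) and 1.31 (0.84 to 1.79). Mnda stood at 16.7 and 13.8 CPM in heterozygous and at 93.3 and 54.3 CPM in null. Il1rn, which encodes the antagonist of the interleukin 1 receptor, had a ratio of 2.24 (1.55 to 2.97), from 11.4 and 13.8 CPM to 63.3 and 54.3 CPM. It lay just above the 50-UMI minimum, with 38 and 44 UMIs in null and 13 and 10 in heterozygous, and its ratio was 1.21 without barcodes that held 5 or more UMIs of another class. Its UMIs came from 21 heterozygous and 54 null barcodes, and metastasis 1 of the unmodified mice held 127 CPM, more than null.

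Of the 12 genes with the largest ratios among the higher ones that had under 50% of their UMIs in 3 barcodes, the null library lay above all 4 unmodified libraries for 7 and inside their range for 5. The heterozygous library lay above that range for 1 of them, Cxcl9, and inside it for 11. Of the 12 genes chosen in the same way among the lower ones, heterozygous lay above the range for 6 and inside it for 6. Null lay inside it for 11 of these and below it for 1, Cx3cr1. Choosing genes by their ratio by itself favours such positions, and the share over all compared genes was not computed. These counts therefore do not show which genotype departs from unmodified mice. The plot of named genes shows these levels.

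**Figure D3:**
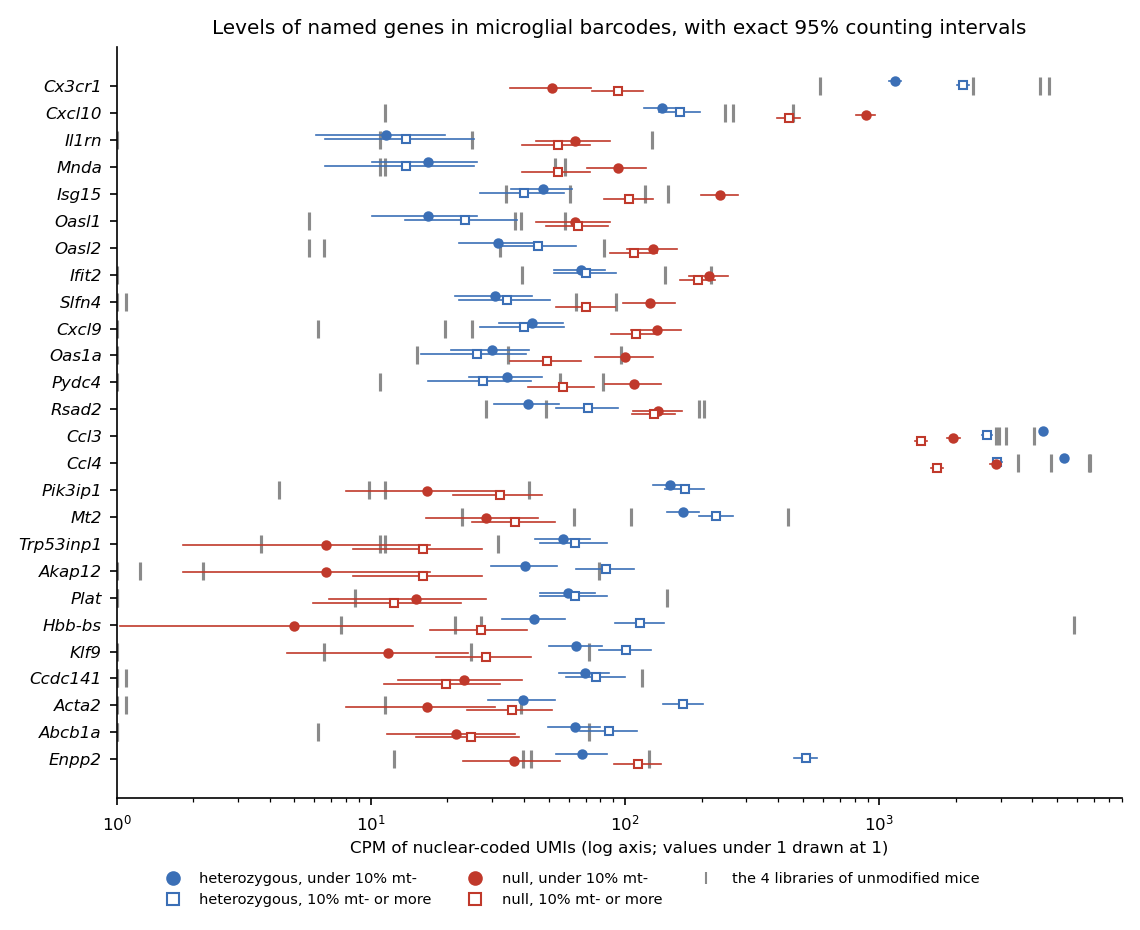
CPM on a log axis (x) of Cx3cr1, the 12 genes with the largest ratios among those higher in null and not held mostly by 3 barcodes, Ccl3 and Ccl4, and the 11 other genes with the largest ratios among those lower in null. Blue is heterozygous and red null, filled circles are low-mt and open squares high-mt barcodes. Lines are exact 95% counting intervals, and grey ticks are the 4 unmodified libraries over all their members. Every gene drawn had passed 1.5-fold in the same direction in both sets, so red lies on the same side of blue by selection. Some intervals overlap, and the grey ticks spread widely.

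Interferon gamma induces a partly separate group. Of its 24 listed genes 16 were compared. In both sets 3 were higher (Cxcl9, Cxcl10 and the guanylate-binding protein Gbp3) and 0 lower, against 1.87% and 2.75% of all genes. The median ratio was 0.43 in low-mt and 0.30 in high-mt barcodes. Gbp3 had a ratio of 0.79 (0.39 to 1.20). Tap2, a subunit of the peptide transporter for MHC class I, stood at −0.54 and 0.21 in the 2 sets. MHC class I genes, 10 of 11 compared, had 0 past 1.5-fold in both sets, against the same shares of all genes. Their medians were 0.02 and 0.36. H2-T23, a class Ib molecule, stood at 0.36 and 0.78, and H2-M3, which presents formylated peptides, at −0.41 and −0.77.

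Chemokines split into genes higher and genes lower in null. Of 17 listed, 12 were compared. Of these 4 were higher (Cxcl10, Cxcl9, Ccl2 and Ccl5) and 2 lower (Ccl3 and Ccl4), against 1.87% and 2.75% of all genes. Cxcl10, a ligand of Cxcr3 on T and NK cells, stood at 139 and 164 CPM in heterozygous and at 883 and 441 CPM in null, a ratio of 2.08 (1.88 to 2.28). The 3 richest barcodes held 48.7% of its null UMIs, and without the 3 richest of each library the ratio was 1.36 (1.13 to 1.59). Cxcl9, another Cxcr3 ligand, had a ratio of 1.52 (1.12 to 1.92), from 43.1 and 40.0 CPM to 133 and 110 CPM, and of 0.78 without barcodes that held 5 or more UMIs of another class. Ccl5, which attracts T cells, stood at 161 and 168 CPM in heterozygous and at 380 and 326 CPM in null, a ratio of 1.09 (0.88 to 1.30). Ccl2, which draws monocytes through Ccr2, had 56.4% of its null UMIs in 3 barcodes. Its ratio of 1.45 (1.22 to 1.69) became 0.65 without the richest barcodes.

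Ccl3 and Ccl4, chemokines that microglia release on activation or handling, were lower in null. Ccl3 stood at 4403 and 2640.1 CPM in heterozygous and at 1955 and 1458 CPM in null, a ratio of −1.15 (−1.22 to −1.09). Ccl4 stood at 5303 and 2914 CPM in heterozygous and at 2865 and 1685 CPM in null, a ratio of −0.999 (−1.06 to −0.94). Summed, the pair stood at 8088 CPM in heterozygous and 3857 CPM in null, and between 6408 and 10715 CPM in the unmodified libraries, so that null lay below all other libraries. The summed ratio was −1.30 without barcodes that held 5 or more UMIs of another cell class. The other compared chemokines were Ccl12 (0.36), Ccl9 (0.48), Ccl6 (0.15), Ccl7 (0.20), Cxcl16 (0.30) and Cxcl2 (−0.25), none past 1.5-fold in both sets.

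Other receptors of chemokines and their G proteins differed little, apart from Cx3cr1. Of 24 listed, 22 were compared, 1 was higher and 2 were lower, against 1.87% and 2.75% of all genes. Gng5, a G protein gamma subunit, had a ratio of 0.86 (0.59 to 1.13), from 138 and 64.8 CPM to 295 and 127 CPM. Cxcr4, the receptor for Cxcl12, had a ratio of −1.01 (−1.61 to −0.45), from 57.2 and 42.7 CPM to 25 and 25.9 CPM. Without barcodes that held 5 or more UMIs of another class, Cxcr4 stood at −0.13.

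Immediate-early genes leaned lower in null, by small amounts, and inflammatory genes went both ways. Of 24 compared immediate-early genes 20 lay below 0 in both sets, against 36.8% of all genes, with medians of −0.32 and −0.19. Only Socs3, an inhibitor of cytokine receptors that signal through Stat3, passed 1.5-fold, at 1123 and 904 CPM in heterozygous and 522 and 551 CPM in null, a ratio of −0.95 (−1.07 to −0.82). Klf2, a Krüppel-like factor of the same list, went the other way, at 0.62 (0.53 to 0.70). Of 22 compared inflammatory genes 0 passed, against 1.87% of all genes upward and 2.75% downward. In both sets 9 lay above 0 and 8 below 0, against 27.4% and 36.8% of all genes. Their medians were 0.06 and 0.002. Tnf, from 1009 and 674 CPM to 710 and 443 CPM, had a ratio of −0.66 (−0.78 to −0.53). Nfkbia, the inhibitor of NF-kB that is itself induced by it, was at −0.43 (−0.48 to −0.38). For Socs3 and Tnf, heterozygous lay above all unmodified libraries and null inside their range. For Nfkbia and Klf2 both genotypes lay inside it.

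The summed ratios of MHC class II genes depended on the set and on how barcodes were weighted. Of 9 listed genes 7 were compared, and 0 passed 1.5-fold in both sets, against 1.87% of all genes upward and 2.75% downward. H2-Aa, a class II alpha chain, stood at 1958 CPM in heterozygous and 1093 CPM in null low-mt barcodes, and at 883 and 935 CPM in high-mt ones. The ratios were −0.84 and 0.08. Cd74, the invariant chain, was at −0.60 and 0.23, and the list had medians of −0.60 and 0.23. The summed ratio over all members, −0.37 (−0.41 to −0.33), had the opposite sign from the barcodes' own shares. The median share per barcode was 0.388% in heterozygous and 0.511% in null, with 0.182% against 0.256% in the low-mt set and 0.464% against 0.550% in the high-mt set. The 3 richest barcodes held 22.6% of the list's UMIs in heterozygous and 14.7% in null. Averaging the barcodes' own CPM gave a ratio of 0.063, and leaving out barcodes with 5 or more UMIs of another class gave 0.26.

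Among microglial identity genes, those of the homeostatic list passed 1.5-fold about as seldom as all genes compared. Of 25 compared homeostatic genes Cx3cr1 alone passed 1.5-fold, downward, against 2.75% of all genes, and 0 passed upward, against 1.87%. The medians were 0.07 and 0.22. Ltc4s, a synthase of leukotrienes, stood at −0.52 and −0.20, and P2ry13, a purinergic receptor, at 0.39 and 0.65. Olfml3, a marker gene on which the barcodes were selected, so that its level is a description only, had 312 and 243 CPM in heterozygous and 598 and 443 CPM in null. Of 18 compared disease-associated genes 2 were higher and 0 lower, against 1.87% and 2.75% of all genes. Lyz2, lysozyme, stood at 1989 and 969 CPM in heterozygous and at 3199 and 2162 CPM in null, a ratio of 0.71 (0.64 to 0.78), and Cd52, a surface glycoprotein, was at 0.56 (0.45 to 0.68). Csf1, the ligand of the receptor on which microglia depend, stood at 258 and 245 CPM in heterozygous and at 105 and 172 CPM in null. Lpl, lipoprotein lipase, stood at 0.90 and 0.56.

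Ribosomal protein genes leaned higher in null. Of 84 genes so named 66 were compared, 11 passed 1.5-fold upward, 0 downward, and 55 lay above 0 in both sets, against 1.87%, 2.75% and 27.4% of all genes. The medians were 0.40 and 0.31. Rps4x, a protein of the small subunit, stood at 104 and 74.4 CPM in heterozygous and at 238 and 191 CPM in null, a ratio of 1.19 (0.92 to 1.47). In unmodified mice Rps4x lay above the heterozygous level in all 4 libraries. Many of these genes have near-identical copies, so single values are uncertain. Actin and motility genes also leaned higher, with medians of 0.33 and 0.43 over 23 compared. In both sets 18 lay above 0, against 27.4% of all genes. Of the 23, 1 passed 1.5-fold upward (Myl6, a myosin light chain) and 0 downward, against 1.87% and 2.75% of all genes. The list summed to 21235 CPM in heterozygous and 26215 CPM in null, below and above the unmodified range of 23303 to 25744 CPM.

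**Figure D4:**
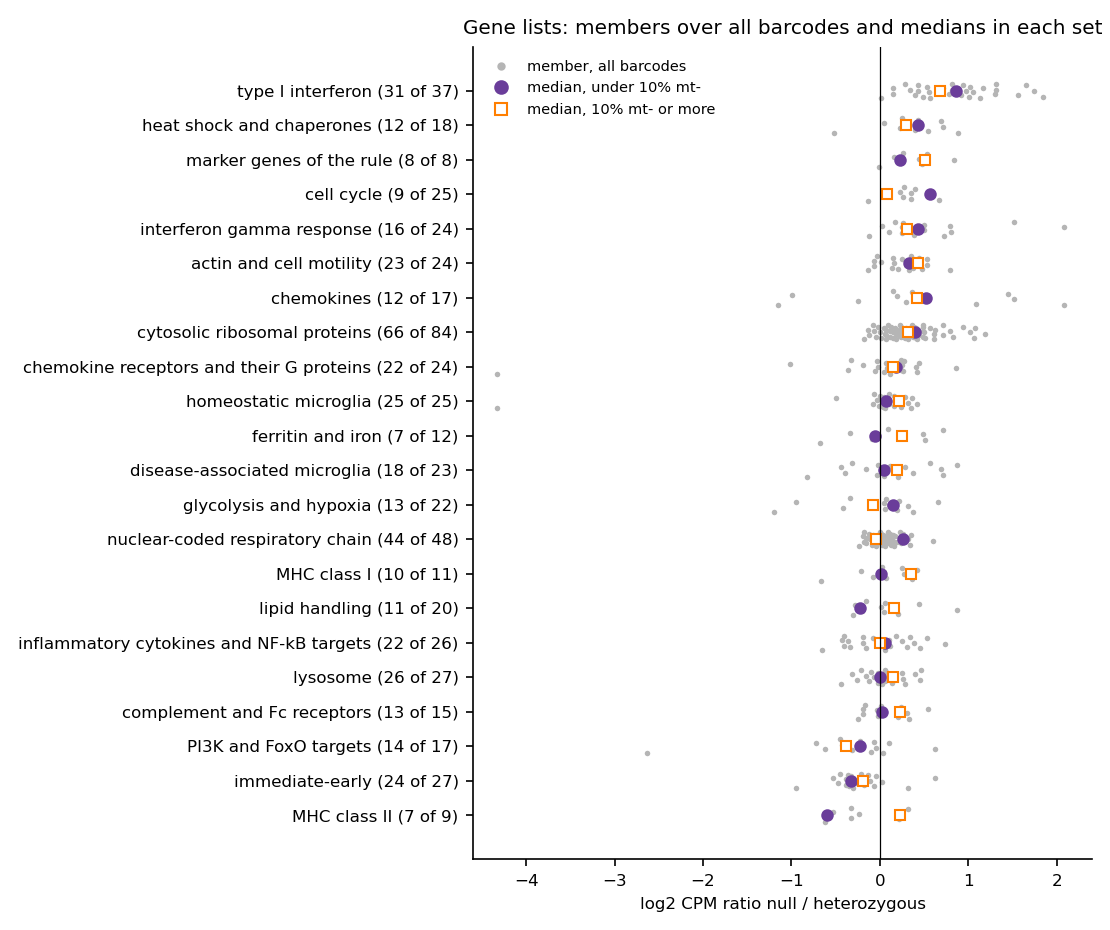
Log2 CPM ratio of null over heterozygous (x) for 22 gene lists (y, with the number of members compared and listed). Grey points are members over all barcodes; filled circles are list medians in low-mt and open squares in high-mt barcodes. The type I interferon list has the highest medians in both sets (0.86 and 0.68), and MHC class II has medians on both sides of 0 (−0.60 and 0.23).

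Pik3ip1, an inhibitor of PI3 kinase, had the largest ratio after Cx3cr1 among the lower genes whose UMIs were spread over many barcodes. It stood at 150 and 172 CPM in heterozygous and at 16.7 and 32.1 CPM in null, a ratio of −2.64 (−3.18 to −2.14). Its UMIs were spread over 195 heterozygous and 33 null barcodes. In unmodified libraries it stood at 4.36, 9.87, 11.4 and 41.7 CPM, so that heterozygous lay above all of them and null inside their range. Without barcodes that held 5 or more UMIs of another class the ratio was −2.86.

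Other genes of PI3 kinase and FoxO signalling did not reach 1.5-fold in both sets. Of 17 listed 14 were compared, and Pik3ip1 alone passed 1.5-fold in both sets, downward, against 2.75% of all genes. In both sets 11 lay below 0, against 36.8% of all genes. Medians were −0.22 and −0.39. Foxo3, a factor that PI3 kinase signalling keeps out of the nucleus, was at −0.57 and −0.95. The summed list stood at 0.03 (−0.05 to 0.10) in the low-mt set, at −0.11 (−0.18 to −0.04) in the high-mt set and at −0.02 (−0.07 to 0.03) over all members. Klf2, which is also on this list, made up 1132 of its 3786 CPM in heterozygous and 1738 of its 3734 CPM in null. The sum thus depends strongly on Klf2, unlike the medians.

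Metallothioneins followed Pik3ip1. Mt2, a metal-binding protein, stood at 169 and 229 CPM in heterozygous and at 28.3 and 37.0 CPM in null, a ratio of −2.53 (−2.999 to −2.09). Mt1, its relative, stood at 844 and 598 CPM in heterozygous and at 372 and 204 CPM in null. Klf9, a Krüppel-like factor induced by glucocorticoids, had a ratio of −1.88 (−2.50 to −1.31), from 64.2 and 101 CPM to 11.7 and 28.4 CPM. Ddit4, an inhibitor of mTOR, had one of −1.19 (−1.64 to −0.76), and Fkbp5, a co-chaperone of the glucocorticoid receptor, one of −0.60 (−0.83 to −0.37). Trp53inp1, a p53 target, stood at 57.2 and 63.4 CPM in heterozygous and at 6.67 and 16.0 CPM in null, a ratio of −2.31 (−3.14 to −1.56). Mt1 and Fkbp5 were named after their values were seen, and no list was fixed that holds these genes together. Heterozygous lay above all unmodified libraries for Trp53inp1 (59.6 CPM against at most 31.5) and inside their range for Mt2. For Klf9 it lay only slightly above the highest of them, naive 2 (78.4 against 72.3 CPM).

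Of the 15 lower genes that stand on marker lists of other classes, 5 are endothelial (Cldn5, Pecam1, Flt1, Slco1a4 and Egfl7), 2 mural (Acta2 and Myl9) and 2 of the choroid plexus (Ttr and Enpp2). Plat, tissue plasminogen activator, had a ratio of −2.18 (−2.97 to −1.48), Akap12, a scaffold of protein kinase A, one of −2.25 (−3.08 to −1.51), and Abcb1a, an efflux pump of brain endothelium, one of −1.63 (−2.23 to −1.07). Acta2, smooth muscle actin, stood at 39.6 and 169 CPM in heterozygous and at 16.7 and 35.8 CPM in null. Enpp2, autotaxin of the choroid plexus, stood at 67.8 and 513 CPM in heterozygous and at 36.7 and 112 CPM in null. Hbb-bs, a beta globin, had a ratio of −2.01 (−2.69 to −1.39). Akap12, Hbb-bs and Acta2 lay at or just above the UMI minimum in the low-mt set and reached it mainly through heterozygous. In that set Akap12 had 46 heterozygous and 4 null UMIs, Hbb-bs had 50 and 3, and Acta2 had 45 and 10. Apod, a lipocalin of glia and fibroblasts, had a ratio of −2.64 (−3.06 to −2.24), with 71.5% of its heterozygous UMIs in 3 barcodes, and −1.01 without the richest barcodes. Ctla2a, a protease inhibitor, had 54.4% in 3 barcodes and a ratio of −2.43, or −1.88 without them.

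Markers of other cell classes were present in the members and differed between the libraries. Ependymal and choroid plexus markers, mostly Ttr, a carrier of thyroid hormone, summed to 1020 CPM (low-mt) and 5251 CPM (high-mt) in heterozygous and to 452 and 2009 CPM in null. Foxj1, Ccdc153 and Tmem212 of that list were at 0 in null. Mural markers stood at 584 and 911 CPM in heterozygous and at 347 and 407 CPM in null, and all 10 were detected in both. Endothelial markers stood at 1273 and 1342 CPM in heterozygous and at 1177 and 764 CPM in null, and all 11 were detected in both. Astrocyte markers stood at 311 and 696 CPM in heterozygous and at 168 and 421 CPM in null, with Gfap at 0 in null.

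Olfactory ensheathing and fibroblast-like markers stood at 617 and 470 CPM in heterozygous and at 115 and 184 CPM in null, with Npy and Col1a1 at 0 in null. Border-associated macrophage markers stood at 790 and 991 CPM in heterozygous and at 562 and 796 CPM in null. Neutrophil markers went both ways, from 352 to 2235 CPM in low-mt and from 1039 to 618 CPM in high-mt barcodes, and 3 barcodes held 64.8% of the null UMIs. Cxcr2 of that list was at 0 in null. Monocyte markers were higher in null, from 1982 to 2417 CPM and from 1123 to 1615 CPM, as were NK and T cell markers, from 45.8 to 120 CPM and from 97.8 to 212 CPM. Chil3, a chitinase-like protein of monocytes that the tables call Chi3l3, went the other way, from 117 to 80.1 CPM, with 59.0% of its heterozygous UMIs in 3 barcodes. Markers of the injected carcinoma cells summed to at most 96.5 CPM, with Krt7 and Cldn4 at 0 in both libraries.

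**Figure D5:**
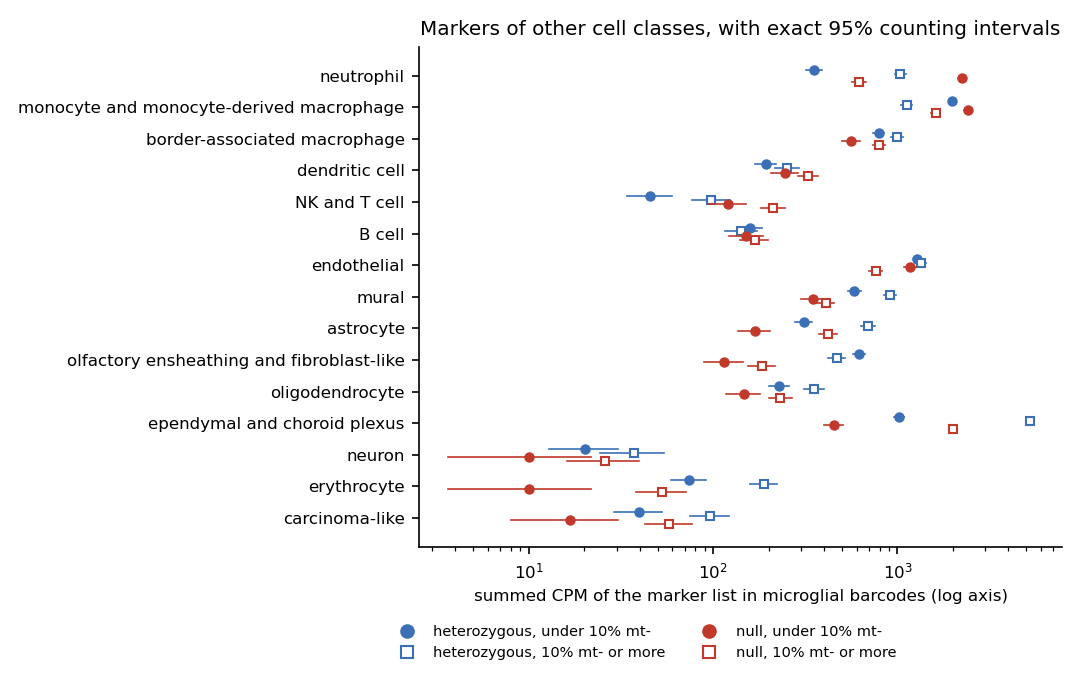
Summed CPM on a log axis (x) of 15 marker lists of other cell classes (y) in the microglial members, with exact 95% counting intervals. Blue is heterozygous and red null, filled circles are low-mt and open squares high-mt barcodes; choroid plexus, mural and astrocyte markers are lower in null in both sets, and neutrophil markers change sides (352 to 2235 CPM low-mt, 1039 to 618 CPM high-mt).

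At least 5 UMIs of some other class were held by 439 heterozygous and 184 null members, or by 164 and 114 when Ttr was not counted. Without them 1832 genes could be compared, 49 were higher and 28 lower. Of the 100 genes higher in null 28 were still compared, 26 of these lay above 0 and 18 passed 1.5-fold in both sets. Of the 147 lower genes 22 were still compared, all 22 lay below 0 and 17 passed. The ratio of the summed type I interferon list was then 0.70 and that of Cx3cr1 −4.55. Isg15 stood at 1.92, Oasl2 at 1.64, Lyz2 at 1.40, Mt2 at −2.63 and Klf9 at −1.61. Cxcl10 stood at 1.09, Gng5 at 0.45, Ccl2 at 0.26, Ctla2a at −1.76, Abcb1a at −0.92, Enpp2 at −0.74 and Apod at −0.75. Other lower genes changed less: Akap12 stood at −2.085, Hbb-bs at −1.91, Acta2 at −1.82 and Plat at −1.69. Over all members these had stood at −2.25, −2.01, −1.71 and −2.18, each from few null UMIs. Barcodes with fewer UMIs of another class were kept, and the part of such RNA in the remaining ratios was not tested. Genotype cannot be told apart from anything else that differed between these 2 pools of brains.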

How the data were processed

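For each library the authors deposited raw UMI counts of genes in 1000 barcodes; the unit was read from the values. STAR, Seurat and the build mm10 are named per the submitters' processing notes. Settings, annotation and the choice of barcodes: not given in the sources used here. Groups follow the labels, although file naming reverses naive and metastasis for the 4 unmodified libraries. Counts of nuclear-coded genes (26 mt- genes left out) were summed over the members of a library and scaled to CPM in Python 3.11.15. Compared were genes with 50 or more UMIs, both libraries together, in each set of barcodes. Ratio intervals (conditional binomial, scipy 1.17.1) and level intervals (Poisson) are exact at 95%. The code was tested on simulated data. No doublets were removed; 1 alternative leaves out the 5% of barcodes with the most UMIs. Other alternatives changed the scaling (all UMIs, TMM of edgeR 4.0.16, per-barcode means), the limits on genes, markers, counts and mitochondrial share, and left out barcodes with markers of other cells. Named were Cx3cr1, Cxcl10 and the 12 genes with the largest ratios in each direction, up to 6 genes with 50% or more of their UMIs in 3 barcodes, up to 6 that passed in opposite directions, and the 2 highest and 2 lowest members of each list, of which some are given; members of the fixed lists are named beside them, and others were named after their values were seen. List genes with no row of their own were matched through RefSeq synonyms (2 genes). Single values of some genes are not reported here. Members, lists and rules were chosen with earlier results of these data known.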

Additional observations from a re-analysis of the deposited data

Results flagged for a closer look

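These genes passed 1.5-fold in opposite directions in the low-mt and high-mt sets, and the difference between the sets was not tested. S100a8 and S100a9, the subunits of calprotectin in neutrophils, had log2 ratios of null over heterozygous of 3.74 and 3.82 in the low-mt set and of −1.43 and −1.19 in the high-mt set. In null 82.1% and 83.1% of their UMIs lay in 3 barcodes. Ngp, a neutrophil granule protein, stood at 1.98 and −2.34. Ly6c1, carried by endothelium and monocytes, stood at 0.73 and −1.44. Cyr61, a matrix protein induced by Yap, stood at 0.78 and −1.38, and Anxa1, a phospholipid-binding protein of myeloid cells, at 0.85 and −0.99.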

How the results depend on the processing

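No paired analysis was possible because each genotype has 1 library, and for the same reason no replicate was left out. The Cx3cr1 ratio lay between −4.62 and −4.33 and the type I interferon ratio between 0.61 and 0.75 over 12 alternatives. The interferon ratio was 0.68 with per-barcode mean CPM, 0.61 without the 5% deepest barcodes and 0.67 without the 3 richest barcodes of each gene. Counts of genes (100 higher, 147 lower) were 211 and 336 at 20 UMIs, 55 and 57 at 100 UMIs, 554 and 756 with no minimum, and 18 and 35 at 2-fold. Lower genes numbered 83 when split at 20% mt- UMIs and 92 without the 5% deepest barcodes. Without barcodes holding 5 or more UMIs of another class the counts were 49 and 28, or 57 and 46 with Ttr not counted, and fewer genes were then compared (1832 and 2530 against 5337). The MHC class II ratio (−0.37) changed sign to 0.063 with per-barcode means, 0.26 without barcodes of another class and 0.30 with Ttr not counted. It was −0.41 with CPM of all UMIs, −0.43 with 5 marker UMIs, −0.20 without the 5% deepest and −0.24 without the 3 richest barcodes. Ccl3 and Ccl4 summed (−1.07) stood at −0.97 with per-barcode means, −1.12 with 5 marker UMIs, −1.12 without the 5% deepest, −1.30 without barcodes of another class, −1.24 with Ttr not counted and −1.20 without the 3 richest. Among smaller values that changed sign, S100a8 stood at −0.16 with per-barcode means; S100a8 and S100a9 stood at −0.57 and −0.60 without barcodes of another class, −0.87 and −0.72 with Ttr not counted, −1.02 and −0.93 without the 5% deepest, and −0.76 and −0.55 without the 3 richest. H2-Aa, H2-Eb1 and Fcgr2b stood at 0.046, 0.16 and 0.13 without barcodes of another class and at 0.14, 0.12 and 0.11 with Ttr not counted; Fcgr2b stood at 0.016 and Top2a at −0.10 with per-barcode means, and Top2a at −0.15 with Ttr not counted. The MHC class I list stood at −0.011 without barcodes of another class and −0.022 without the 3 richest, the respiratory chain list at −0.013 without the 5% deepest and −0.0029 without the 3 richest, the ferritin list at 0.023 with per-barcode means, and the homeostatic list at −0.0076 with CPM of all UMIs. Cause was not tested. The settings with Ttr not counted and without the 3 richest barcodes were chosen after seeing the data. Of 19361 genes, 5831 had at least 50 UMIs in the low-mt set, 5809 in the high-mt set and 5337 in both, and the others could not be compared at this depth.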
